A study of Hypomesus transpacificus with 70 samples.

Results

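The transcripts described here had a higher mean signal at 12 ppt than at 2 ppt when sampled 48 h after salinities began to change, in the gill of the delta smelt (Hypomesus transpacificus), a small euryhaline fish of the San Francisco Estuary. They were chosen from the probes that the study lists as responsive to salinity, referred to here as the salinity list, by a difference of at least 0.7 on the log2 scale between the mean of the fish at 12 ppt and 48 h and the mean of the fish at 2 ppt and 48 h in the authors' table of values. The latter fish were the handling control. Of 697 listed probes, 66 reached that difference and 7 of these, belonging to 5 symbols, were set aside by name. By function, 4 of these symbols were mitotic and 1 belonged to DNA replication, so that the members leave out passing transcripts of the same functions. The other 59 probes represented 47 of the 487 transcripts listed. The microarray carried 36818 probes besides controls. Since the difference at 48 h chose the members, it is described below without a test, as is every other value of the 12 ppt and 2 ppt fish of that time. The authors had selected the list itself for an effect of salinity, or of salinity combined with time, on the same fish, so that the tests in other groups are not independent of that selection.

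Gill RNA of 70 prespawning adults was hybridized to 70 single-color arrays, 1 fish per array. All fish had been held for at least 2 weeks at 2 ppt and moved to experimental containers the evening before. Salinity was then changed over 6 h to 0, 6, 12 or 18 ppt, rounded in the sample labels, and fish were sampled at 6, 24 and 48 h from the start of that ramp. The handling control went through the same procedure at 2 ppt and comprised 6 fish at each time, and a further 5 fish were taken at 2 ppt before the ramp (0 h). The other groups held 4 fish, except 12 ppt at 24 h with 3. Fish were exposed in containers of 10, with additional containers for the handling control. For the other groups, container and group cannot be told apart. The control labels carry letters A, B or C and do not say whether these name containers. All p-values measure the spread between fish. In a bulk sample, fewer cells of a type and less RNA per cell cannot be told apart. Arrays had median processed signals of 12.9 to 131, and between 62.0% and 90.8% of their probes were well above background. The number of fish limits the precision of each value. Signals were quantile normalized over all arrays and log2 transformed, and a transcript's level is the mean of its member probes in a fish. Levels of different transcripts are not comparable, since each probe has its own brightness. Of the 47 transcripts, 36 passed the filter on dim probes, which asked for a signal of 100 on 50% of the arrays. The other 11 were dimmer, among them 7 of the mitotic transcripts described below, and their values come from the same processing without the filter.

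Cell division was the function named most often among the members. Before a cell divides, it copies its DNA with the help of replication licensing factors, histone chaperones and enzymes that supply nucleotides. In mitosis the chromosomes are compacted by condensin and attached to spindle microtubules at kinetochores, and cyclin B with its kinase drives entry into the process. The chromosomal passenger complex, which contains Aurora kinase B and survivin, corrects faulty attachments and takes part in separating the daughter cells. Messenger RNAs for these mitotic proteins are most abundant late in the cell cycle, and in a tissue they are widely used as markers of proliferating cells. The gill epithelium is renewed continuously, and ionocytes, the mitochondrion-rich cells that carry out ion transport, differentiate from dividing precursors.

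The probes are oligonucleotides of 60 bases, and the survivin pair is shown because both of its probes belong to the members and overlap, so that its 2 readings come from neighboring positions of the same RNA. Capitals mark the 40 bases that both probes share.
birc5a probe 1: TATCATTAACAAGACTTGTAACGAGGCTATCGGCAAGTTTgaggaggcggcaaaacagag
birc5a probe 2: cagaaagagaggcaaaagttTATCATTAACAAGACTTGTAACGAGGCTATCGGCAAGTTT
Their differences were 1.64 and 1.73, and their levels correlated at 0.96 over the 70 arrays, a description of probes that share sequence. The single probes of cyclin B1 and Aurora kinase B, whose fish values are given below, have no capitals since no second probe of either is listed.
ccnb1 probe 1: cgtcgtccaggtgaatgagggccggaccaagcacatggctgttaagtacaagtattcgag
aurkb probe 1: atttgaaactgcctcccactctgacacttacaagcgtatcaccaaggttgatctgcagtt
The pair of nasp, the histone chaperone, is shown because the difference of one probe, 1.1, lay above the minimum and that of the other, 0.68, below it, although 38 bases in capitals are common to both.
nasp probe 1: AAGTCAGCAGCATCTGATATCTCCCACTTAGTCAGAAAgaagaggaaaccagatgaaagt
nasp probe 2: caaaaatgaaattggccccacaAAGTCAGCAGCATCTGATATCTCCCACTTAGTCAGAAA
In all, 17 of the 47 transcripts had 2 listed probes, and 13 of these pairs shared at least 20 bases. The pairs correlated at 0.89 to 0.99 over the arrays. In 5 members, nasp, mcm4, slc17a9a, bdh2 and cdca7a, the other listed probe stayed below the minimum and was left out of the level. The differences of these left-out probes were 0.68, 0.61, 0.51, 0.68 and 0.69 in that order. Levels and tests of these 5 members therefore rest on the probe with the larger difference. The uncharacterized si:ch211-69g19.2 is listed under 2 transcript numbers whose probes carry the same letters, so that it is 1 measurement made in duplicate. Counted once, the members were 46 transcripts with 57 distinct probe sequences. Its duplicate levels differed by a median of 0.044 log2 units between the listings. The probe that stands for it is the following, with the 59 bases common to both of its probes in capitals.
si:ch211-69g19.2 probe 1: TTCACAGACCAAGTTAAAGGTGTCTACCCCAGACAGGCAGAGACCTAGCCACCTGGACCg
The share of G and C ranged between 38.3% and 55.0% over the member probes with a median of 45.0%, which was also the median of all probes of the salinity list.

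The difference that chose the members had a median of 1.00 over the 47 transcripts and ranged between 0.70 and 1.82 on the log2 scale. Just inside the minimum lay slc17a9a, a vesicular transporter of the SLC17 family, at 0.70 and ftsj, listed as a ribosomal RNA methyltransferase, at 0.71. Just outside it lay AIFM2, listed as an apoptosis-inducing factor homolog, at 0.697, and the GTPase CR626941.1 at 0.68. Functions were assigned from the symbols and gene names of the salinity list. For some members only the symbol gave a function, as for cenpe, listed as a hypothetical protein, and prp19, listed as an unnamed protein product. By these functions, 15 members belonged to chromosome segregation and mitosis, out of 24 listed transcripts. A further 6 of 16 belonged to DNA replication, repair and nucleotide supply. In contrast, 5 of 36 belonged to ion transport and epithelium, 4 of 28 to RNA processing and nuclear transport, 4 of 36 to mitochondria and energy, 3 of 41 to amino acid and lipid metabolism and 1 of 58 to cytokines and inflammation. The listed totals include the transcripts set aside, and the member counts do not. These counts follow from the rule and were not tested. At a minimum of 1 in place of 0.7, 13 of 24 transcripts were mitotic, and at 0.5 it was 15 of 83.

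All 15 mitotic transcripts had their highest group mean of 16 at 12 ppt and 48 h. Their mean level there was 8.42 ± 0.17 (SD, n = 4), whereas the means of the other groups lay between 6.60 and 7.35. The fish at 12 ppt and 48 h stood at 8.37, 8.20, 8.52 and 8.57. The highest of the 66 other fish stood at 7.94 and belonged to 18 ppt at 6 h, followed by fish 1 of 18 ppt at 48 h at 7.89. The fish of this group overlapped with no others. Their values had chosen the transcripts, so that their high level here follows in part from the rule. The same salinity gave the lowest group means at the earlier times, 6.60 at 6 h and 6.66 at 24 h. In each of these groups 1 fish stood below the others. It was at 6.00 against 6.76 to 6.85 at 6 h, and at 6.38 against 6.80 and 6.82 at 24 h. The group medians were 6.78 and 6.80, near the 6.82 of 0 ppt at 24 h.

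**Figure D1:**
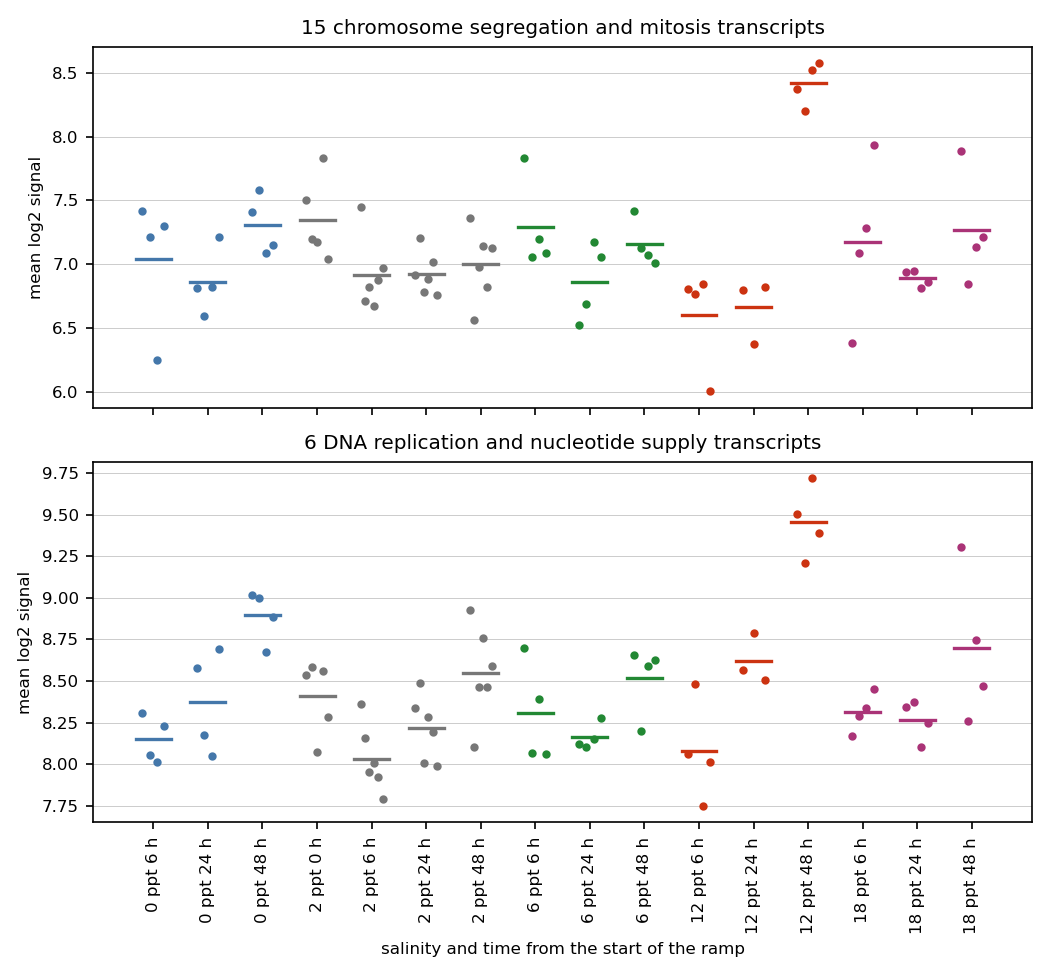
Mean log2 signal of the 15 mitotic transcripts (upper panel) and of the 6 DNA replication and nucleotide supply transcripts (lower panel) in each fish (points), by salinity and time from the start of the ramp, with the group mean as a line. In the upper panel the 4 fish at 12 ppt and 48 h lie between 8.20 and 8.57 and above each of the other 66 fish, and in the lower panel 1 fish at 18 ppt and 48 h, at 9.31, overlaps them.

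Cyclin B1 (ccnb1), the regulatory partner of the kinase that drives entry into mitosis, had the largest difference. It was measured at 8.94, 8.92, 9.30 and 9.27 in the fish at 12 ppt and 48 h. In the handling control of that time the lowest fish stood at 6.66, the median at 7.20 and the highest at 7.91. Every fish at 12 ppt lay above every control, and the means of 9.11 ± 0.20 and 7.31 ± 0.47 (SD, n = 4 and 6) were 3.48-fold apart. Folds here and below are ratios of the geometric mean signals of both groups. At the earlier times at 12 ppt the transcript was at 7.41, 7.43, 6.91 and 6.73 at 6 h and at 7.31, 6.16 and 7.50 at 24 h. These 7 fish were within or below the range of the controls at 48 h. The next highest group was 6 ppt at 6 h with a mean of 8.05, and the 4 fish at 18 ppt and 48 h stood at 8.24, 7.15, 7.37 and 6.70.

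The chromosomal passenger complex was represented by 2 members. Aurora kinase B (aurkb), its catalytic subunit, was at 9.27, 9.19, 9.48 and 9.52 at 12 ppt and 48 h, and between 7.04 and 8.58 with a median of 8.0 in the controls. Survivin (birc5a), a subunit that brings the kinase to the centromere, was at 9.29, 8.96, 9.14 and 9.38, and between 6.87 and 8.01 with a median of 7.69 in the controls. For neither did a fish of another group reach those at 12 ppt and 48 h. The means were 2.66-fold and 3.19-fold above the control.

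At the kinetochore and the spindle, ska1, a subunit of the complex that couples kinetochores to microtubules, was 3.43-fold higher and the kinesin cenpe, which moves chromosomes toward the spindle equator, was 2.90-fold higher. The minus-end motor kifc1 was 2.78-fold higher, and haus1, a subunit of the augmin complex that nucleates microtubules within the spindle, 1.92-fold. The kinetochore proteins PMF1 and spc24 were 2.31-fold and 1.72-fold higher, and CU638740.3, listed as a centromere protein, 2.93-fold. The condensin subunits ncaph and ncapg were 2.71-fold and 2.64-fold higher. The mitotic kinase pbk was 3.14-fold higher, trip13, an ATPase of the spindle checkpoint, 2.81-fold, and ube2c, the ubiquitin-conjugating enzyme that works with the anaphase-promoting complex, 2.24-fold. In each of these the 4 fish at 12 ppt lay above the 6 controls. Above all 66 other fish of the experiment lay 8 of the 15, namely ccnb1, ska1, birc5a, pbk, trip13, aurkb, PMF1 and haus1. Of these, ska1, pbk, trip13 and PMF1 did not pass the filter on dim probes, as did not CU638740.3, ncaph and ncapg. The same 4 fish had chosen the transcripts, so that the separation follows in part from the rule. The shares of all features whose 4 fish lie above the controls, or above all other fish, were not determined.

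The 6 transcripts of DNA replication and nucleotide supply were also highest at 12 ppt and 48 h, but stood high at 48 h in other salinities as well. Their mean level was 9.45 ± 0.21 (SD, n = 4) at 12 ppt, 8.89 ± 0.16 (n = 4) at 0 ppt, 8.7 ± 0.45 (n = 4) at 18 ppt, 8.55 ± 0.28 (n = 6) at 2 ppt and 8.52 ± 0.21 (n = 4) at 6 ppt. All 4 fish at 12 ppt exceeded the controls, whereas fish 1 at 18 ppt, at 9.31, lay within their range. The histone chaperone nasp was at 9.92, 9.56, 10.08 and 9.57 at 12 ppt, and between 8.07 and 9.15 with a median of 8.80 in the controls. It was the single member outside the mitotic group for which no other fish reached these values, the closest being 9.53 at 18 ppt. The replicative helicase subunit mcm4 was 1.80-fold above the control, atic, an enzyme of purine synthesis, 1.83-fold, and dut, which removes dUTP before it can enter DNA, 1.74-fold. With both listed probes of mcm4 its log2 difference was 0.73, against 0.85 with the member probe alone. The telomere-binding protein pot1 was 1.99-fold higher and cdca7a, which is needed for chromatin remodeling in mammals, 1.74-fold.

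Among the other members, the importin kpna2, which carries proteins into the nucleus, had the largest difference at 3.34-fold. Its fish stood at 12.30, 11.98, 12.58 and 12.32 at 12 ppt and 48 h, and between 10.27 and 10.78 with a median of 10.57 in the controls. The fish did not overlap, although 2 of the 66 other fish reached the lowest of these values. Annexin anxa1a, a phospholipid-binding protein of epithelia and leukocytes, was 3.33-fold higher by the means, with fish at 12.08, 12.37, 12.53 and 11.35. Its controls ranged between 8.93 and 11.37 with a median of 10.53, so that 1 control overlapped the lowest fish at 12 ppt.

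The 5 members of ion transport and epithelium overlapped with the control, since in none of them did the 4 fish at 12 ppt all exceed the 6 controls. The transglutaminase tgm5l, of a family that crosslinks proteins, was 2.08-fold higher by the means, the desmosomal protein pkp3a 2.01-fold, the potassium channel kcnj1b 2.00-fold, the ammonia transporter rhcga 1.76-fold and slc17a9a 1.57-fold. For kcnj1b and rhcga the level at 12 ppt was already high at 24 h, by 0.23 and 0.16 more than at 48 h. For slc17a9a the group ranked 11 from the highest of 16. Among the remaining members, si:dkey-17e16.9, listed as an epidermal lipoxygenase, was 1.84-fold higher, the caspase-3-like CU467905.1 2.05-fold, an interleukin-8-like transcript 1.86-fold, the splicing factor prp19 1.89-fold, the nuclear phosphoprotein anp32b 2.08-fold and the mitochondrial import channel tomm40 1.63-fold. RABGAP1L, a regulator of vesicle traffic, was 2.19-fold higher, THEM6, a protein of the thioesterase superfamily, 1.94-fold, ttc38, a tetratricopeptide repeat protein, 1.77-fold, and si:ch211-69g19.2 3.11-fold under both listings. The RNA-binding protein hnrnpabb was 1.76-fold higher, ftsj 1.62-fold, a transcript listed with a prolyl-tRNA synthetase domain 1.84-fold and the peptidase blmh 1.71-fold. For some members the control itself was lower at 48 h than at 6 h, by a difference of -1.24 for RABGAP1L, -0.98 for THEM6, -0.81 for ttc38, -1.39 for gdpd3a, -0.92 for cyb5r2 and -2.58 for slc17a9a. Their groups at 12 ppt and 48 h ranked 5, 2, 3, 7, 4 and 11 from the highest of 16. Over all members, the control was lower at 48 h than at 6 h in 22 of 47, with a median difference of 0.05. The enzymes bdh2, listed as a hydroxybutyrate dehydrogenase, and cyb5r2, a cytochrome b5 reductase, were 1.73-fold and 1.91-fold higher, sdr39u1, of the short-chain dehydrogenase family, 1.70-fold, and gdpd3a, a phosphodiesterase of lipids, 1.74-fold. The fish at 12 ppt overlapped the controls in RABGAP1L, CU467905.1, si:dkey-17e16.9, anp32b, tomm40, hnrnpabb, ftsj, cyb5r2 and the interleukin-8-like transcript. For RABGAP1L the controls ranged between 5.16 and 8.16, and the fish at 12 ppt between 6.42 and 8.12. For the interleukin-8-like transcript the ranges were 6.79 to 10.62 and 9.40 to 10.70.

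**Figure D2:**
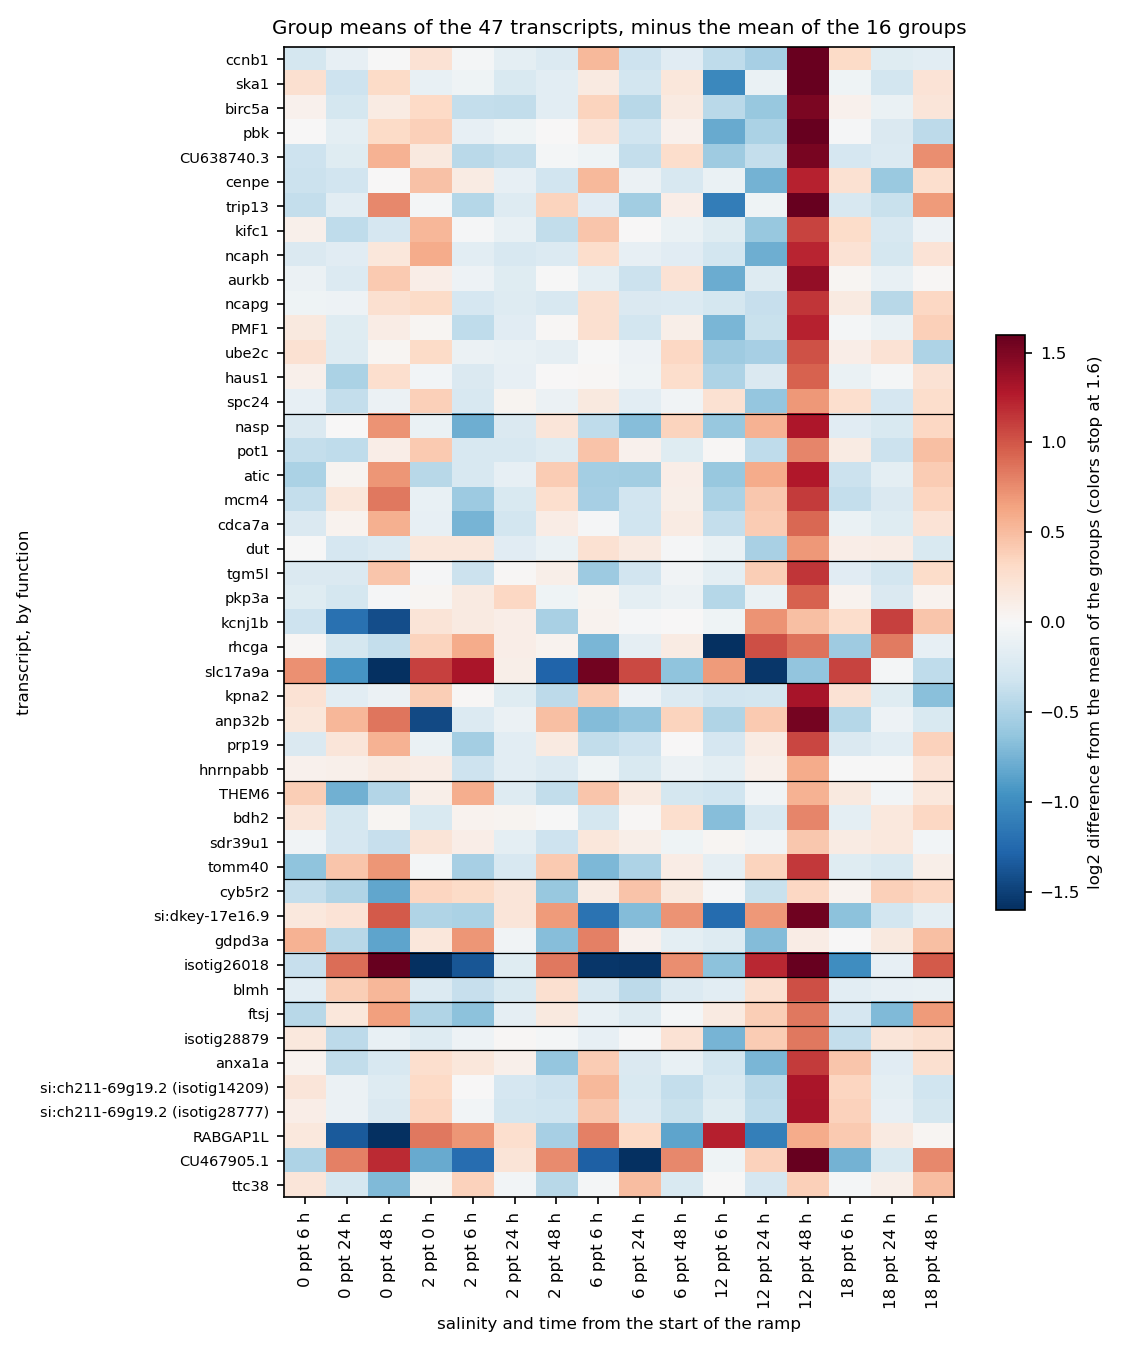
Group means of the 47 transcripts (rows, ordered by function) in the 16 groups (columns), as log2 difference from the mean of that transcript over the groups (color). The column of 12 ppt at 48 h is the highest in 38 of 47 rows, including 15 of 15 mitotic and 6 of 6 DNA replication transcripts. The rule chose the rows for a high mean in that column.

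Over all members, the group at 12 ppt and 48 h was the highest of 16 in 38 of 47, and its 4 fish lay above all 6 controls in 32. From 24 h to 48 h at 12 ppt the median difference was 1.11, with 45 of the 47 higher at 48 h. The rule chose the members for a high mean in this group, so that these counts follow in part from it. Their shares over all features were not determined. At 48 h the median difference of the members from 2 ppt was 0.28 at 18 ppt, 0.07 at 6 ppt and 0.30 at 0 ppt, against 1.00 at 12 ppt, and for the mitotic transcripts it was 0.36, 0.07 and 0.30, against 1.47. By the same minimum of 0.7, 7 members would have been chosen at 18 ppt, 1 at 6 ppt and 1 at 0 ppt. All 4 comparisons share the control fish from which the members were chosen to differ at 12 ppt, so that the smaller medians elsewhere follow in part from the rule, and none was tested. In single members the order was another, since ttc38, gdpd3a and slc17a9a were further above the control at 18 ppt than at 12 ppt, and the interleukin-8-like transcript was at 0 ppt, by 1.23 against 0.89. For kcnj1b and cyb5r2 the differences at 18 ppt, 0.96 and 0.93, were nearly those at 12 ppt, 1.00 and 0.93.

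At 6 h, when the ramp ended, limma found 0 of the 36 members in the model higher and 2 lower at 12 ppt than in the control of that time. Of all features 2.32% differed, 1.23% higher and 1.09% lower, and 8 members and 27.3% of all features had an unadjusted p under 0.05. Of the 368 other listed transcripts in the model, 28 were higher and 10 lower. Here and below, such a transcript was counted when all of its probes in the model passed the threshold in the same direction. The ammonia transporter rhcga, which conducts ammonia out of gill cells, was at 9.84, 10.57, 8.22 and 9.69 in the 4 fish at 12 ppt. In the 6 controls it ranged between 11.55 and 12.49 with a median of 11.96. All fish at 12 ppt lay below all controls, with a difference of -2.36 ± 0.47 (SE; limma, adjusted p = 0.00566). Within scan days the difference was -2.38 and -2.27, within photomultiplier settings -2.15 and -2.65, and on the slide that held both groups -2.20. THEM6 was at 5.72, 6.65, 6.81 and 6.75, below the controls between 7.31 and 7.44, with a difference of -0.90 ± 0.25 (adjusted p = 0.0383). The arrays at 12 ppt were dimmer than those of the control, with medians between 17.1 and 54.3 against 40.6 and 118.5, and the part of brightness in these differences was not tested beyond the model with brightness as a covariate, in which 1 of the 2 calls was left. Without fish 3 at 12 ppt, whose array was the dimmest of its group, no call was left and rhcga had an adjusted p of 0.0604. The count was 1 without any single one of 7 other fish (fish 2 and 4 at 12 ppt and A1, A2, A3, B1 and C2 of the control), 4 without fish 1 at 12 ppt and 5 without fish C1 of the control.

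At 24 h, 0 of the 36 members differed between 12 ppt and the control in limma, while 0.0277% of all features did. At an unadjusted p under 0.05 there were 8 members and 6.30% of all features. The 8 mitotic transcripts in the model had a median difference of -0.39 and the 5 of DNA replication 0.68, against 0.02 over all features. Within 12 ppt, 7 members changed between 6 and 24 h, 4 upward and 3 downward. Of all features 0.950% changed, 0.742% upward and 0.208% downward, and 25.4% had an unadjusted p under 0.05. Of the 368 other listed transcripts in the model, 12 rose and 7 fell. The ammonia transporter rhcga rose by 2.79 ± 0.56 (SE; adjusted p = 0.0152) to 12.53, 12.34 and 12.22, all above the 4 fish at 6 h. The lipoxygenase-like si:dkey-17e16.9 rose by 1.92 ± 0.47 (adjusted p = 0.0325), atic by 1.20 ± 0.30 (adjusted p = 0.0394) and nasp by 1.16 ± 0.28 (adjusted p = 0.0325). The transporter slc17a9a fell from 7.42, 7.85, 8.7 and 8.33 to 6.26, 5.0 and 6.28, with no overlap and a difference of -2.23 ± 0.46 (adjusted p = 0.0182). RABGAP1L had a difference of -2.34 ± 0.50 (adjusted p = 0.0197), with 1 fish at 10.19 among 7.34 to 7.45 at 6 h, and the kinetochore protein spc24 one of -0.87 ± 0.22 (adjusted p = 0.0416). Among the 7 other listed mitotic transcripts in the model none changed. The arrays at 24 h were brighter, with medians between 52.5 and 93.1 against 17.1 and 54.3 at 6 h, and with brightness as a covariate, or with slide as a fixed block, none of the 7 calls was left. None was left either without fish 2 or fish 3 at 24 h or fish 3 at 6 h, and 3, 4 and 2 were left without fish 1 at 24 h, fish 2 at 6 h and fish 4 at 6 h.

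**Figure D3:**
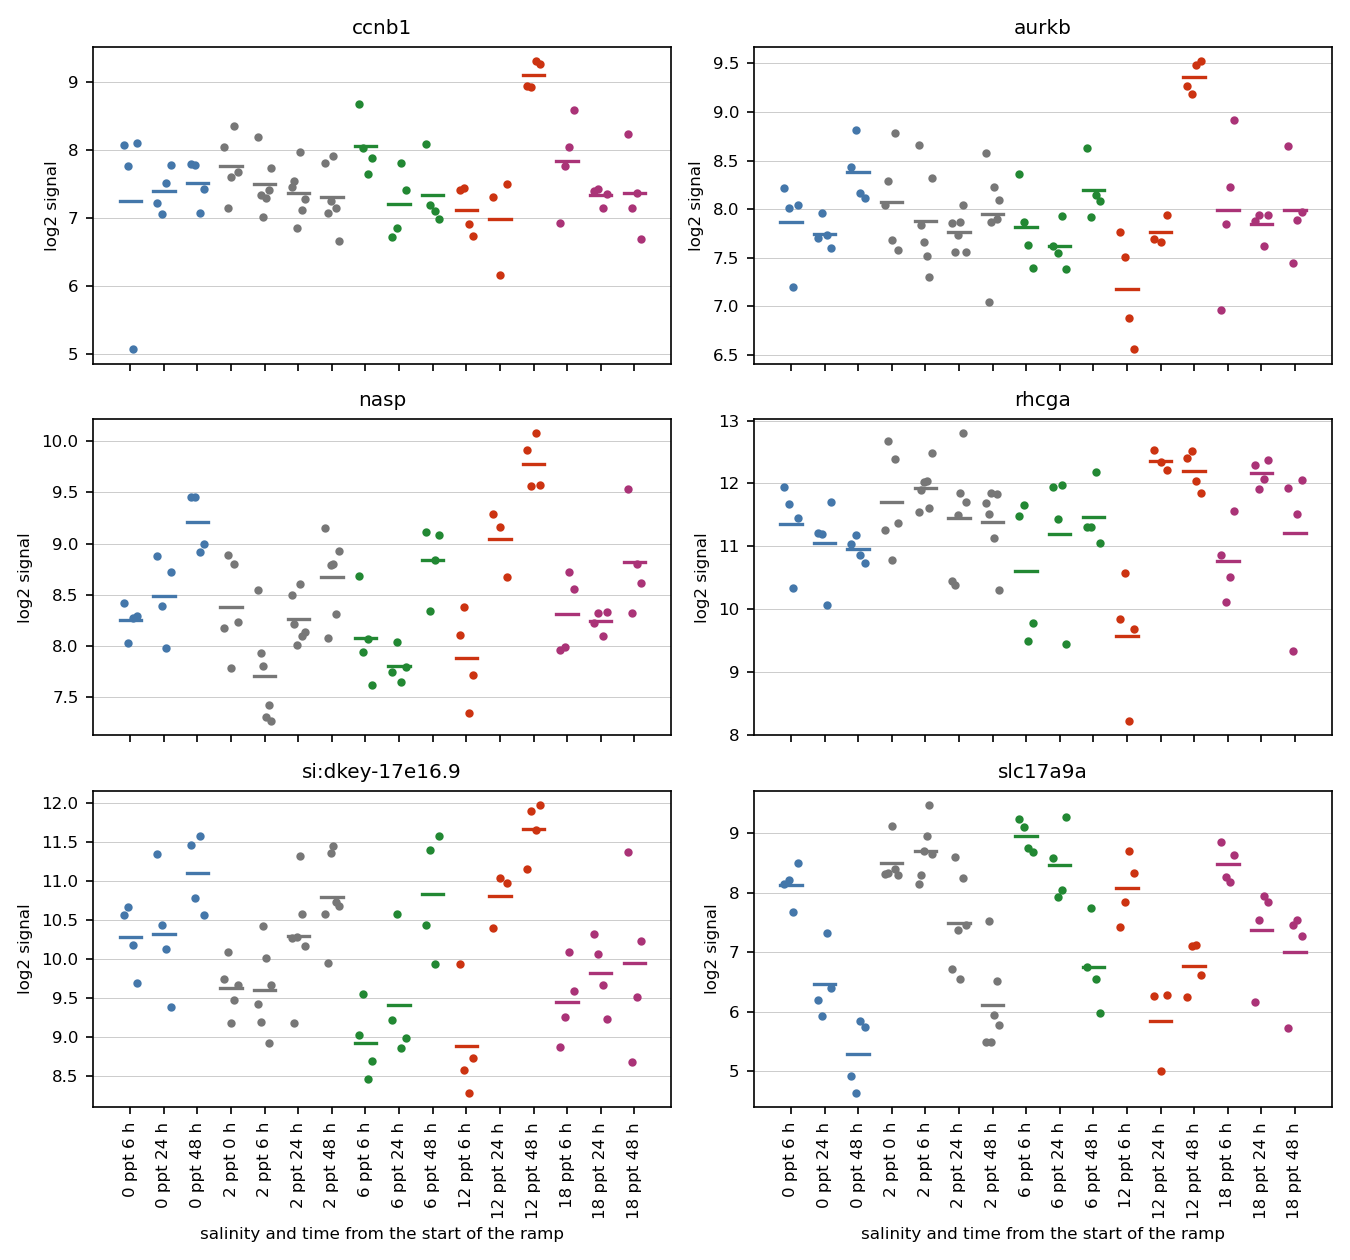
Log2 signal of 6 members in each fish (points) with the group mean (line), by salinity and time from the start of the ramp. The mitotic ccnb1 and aurkb are high at 12 ppt and 48 h, where ccnb1 lies between 8.92 and 9.30, nasp and si:dkey-17e16.9 are also high at 48 h at 0 ppt, rhcga is lowest at 12 ppt and 6 h with a mean of 9.58, and slc17a9a is lower at 48 h than at 6 h in each salinity.

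At 18 ppt, the higher salinity, 0 of the 36 members differed from the control at 6 h and 0 at 24 h in limma, where 0.00694% and 0.0208% of all features did, with 3 members each time and 5.27% and 5.21% of all features at an unadjusted p under 0.05. At 48 h, 18 ppt could be compared with 0 ppt and 6 ppt, whose fish the rule had not used. Against 0 ppt, 1 member was higher, where 0.194% of all features differed and 0.0763% were higher, and 8 members and 19.4% of all features had an unadjusted p under 0.05. This was ttc38, at 7.64, 7.72, 7.38 and 7.56 at 18 ppt and 6.26, 6.24, 6.58 and 6.43 at 0 ppt, with no overlap and a difference of 1.20 ± 0.24 (SE; adjusted p = 0.00536). The call was lost with 75th percentile scaling, with another or no filter, and with the authors' values. Without fish 1 at 18 ppt, in which the mitotic and DNA replication levels were the highest of the group, 8 members differed, and between 2 and 4 did without any single one of 15 other fish of the experiment. Against 6 ppt, 0 differed, while 0.472% of all features did, and 4 members and 21.6% of all features had an unadjusted p under 0.05. Without fish 7 at 18 ppt, 1 member differed, pot1. The 8 mitotic transcripts in the model had 0 calls in each of these comparisons.

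Part of the members also changed with time at salinities the rule had not used. Between 6 and 48 h at 0 ppt, 7 of the 36 members rose and 4 fell. Of all features 6.27% changed, 3.76% upward and 2.50% downward, and 15 members and 19.7% of all features had an unadjusted p under 0.05. Of the 368 other listed transcripts in the model, 75 rose and 24 fell, so that such changes were common in the salinity list as a whole. The replicative helicase subunit mcm4 rose from 8.58, 8.15, 8.16 and 8.47 to 9.76, 9.73, 9.17 and 9.62, with no overlap and a difference of 1.23 ± 0.27 (SE; adjusted p = 0.00304). The purine enzyme atic rose from 9.18, 8.73, 8.88 and 8.61 to 10.08, 10.17, 9.97 and 10.02, also without overlap, by 1.21 ± 0.28 (adjusted p = 0.00516), and nasp by 0.95 ± 0.26 (adjusted p = 0.0183). Thus 3 of the 5 DNA replication members in the model rose, and 0 of the 8 mitotic members changed, with a median difference of 0.12. Of the 6 other listed transcripts of DNA replication in the model 0 changed, with a median of -0.07. The interleukin-8-like transcript rose by 2.44, the caspase-3-like CU467905.1 by 1.68, tomm40 by 1.35 and prp19 by 0.79 (adjusted p between 0.0178 and 0.0433). The transporter slc17a9a fell from 8.15, 8.21, 7.67 and 8.50 to 4.93, 4.64, 5.85 and 5.74, with a difference of -2.85 ± 0.43 (adjusted p = 4.54e-05), and RABGAP1L, ttc38 and THEM6 fell as well. Of the 11 dim members, fitted without the filter, gdpd3a fell by 1.40 (adjusted p = 0.0232). The mitotic trip13, also dim, was at 5.72, 5.47, 4.66 and 5.76 at 6 h and at 6.59, 6.88, 6.36 and 6.36 at 48 h, without overlap, with a difference of 1.14 ± 0.32 (adjusted p = 0.0555). It passed the threshold when the filter asked for signals well above background. Among the other listed transcripts, 18 of 27 of ribosome biogenesis rose and 1 of 7 mitotic ones did. The count of 11 was 5 without fish 4 at 6 h, 7 without fish 1 at 6 h, and 6 without fish 2 at 6 h or any single one of fish 1, 2 and 5 at 48 h.

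At 6 ppt, 4 members rose and 4 fell between 6 and 48 h. Of all features 22.6% changed, 9.96% downward, so that the share of members changed, 22.2%, was near that of all features. Of the 368 other listed transcripts in the model, 95 rose and 33 fell. At an unadjusted p under 0.05 there were 15 members and 38.3% of all features. The lipoxygenase-like si:dkey-17e16.9 rose from 9.02, 9.55, 8.46 and 8.69 to 10.43, 11.40, 9.94 and 11.57, without overlap and by 1.90 ± 0.43 (SE; adjusted p = 0.00305). The caspase-3-like CU467905.1 rose from 7.40, 7.35, 7.03 and 7.08 to 9.44, 9.27, 8.58 and 9.86, also without overlap and by 2.07 ± 0.53 (adjusted p = 0.00699). The interleukin-8-like transcript and nasp rose too, and slc17a9a, RABGAP1L, THEM6 and si:ch211-69g19.2 under 1 of its listings fell. For slc17a9a the difference was -2.19 ± 0.43 (adjusted p = 0.0010). The count was 5 without fish 3 or fish 4 at 48 h and 4 without fish 4 at 6 h. At 18 ppt, 0 of the 36 changed over the same interval in limma, while 1.44% of all features did, 0.936% upward and 0.506% downward. Of the 368 other listed transcripts in the model, 27 rose and 7 fell. At an unadjusted p under 0.05 there were 12 members and 14.9% of all features. Without fish 5 at 48 h, whose array was the dimmest of its group with a median of 15.4, 6 members changed, namely tgm5l, CU467905.1, prp19, atic and mcm4 upward and slc17a9a downward, and 1 did without any single one of 5 other fish (fish 7 at 48 h, fish 1 at 6 h and fish 1 at 24 h of 18 ppt, and A3 at 24 h and A2 at 48 h of the control). The difference between the time courses at 18 and 0 ppt was past the threshold for 0 members and 0.00% of features, with 5 members and 5.06% of features at an unadjusted p under 0.05, so a difference between both salinities was not shown for any member. In the handling control, 0 members changed between 6 and 24 h, and 0 between 0 and 6 h, in limma, with 0.00% of features called, and 6 and 9 members and 6.40% and 11.3% of all features had an unadjusted p under 0.05.

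**Figure D4:**
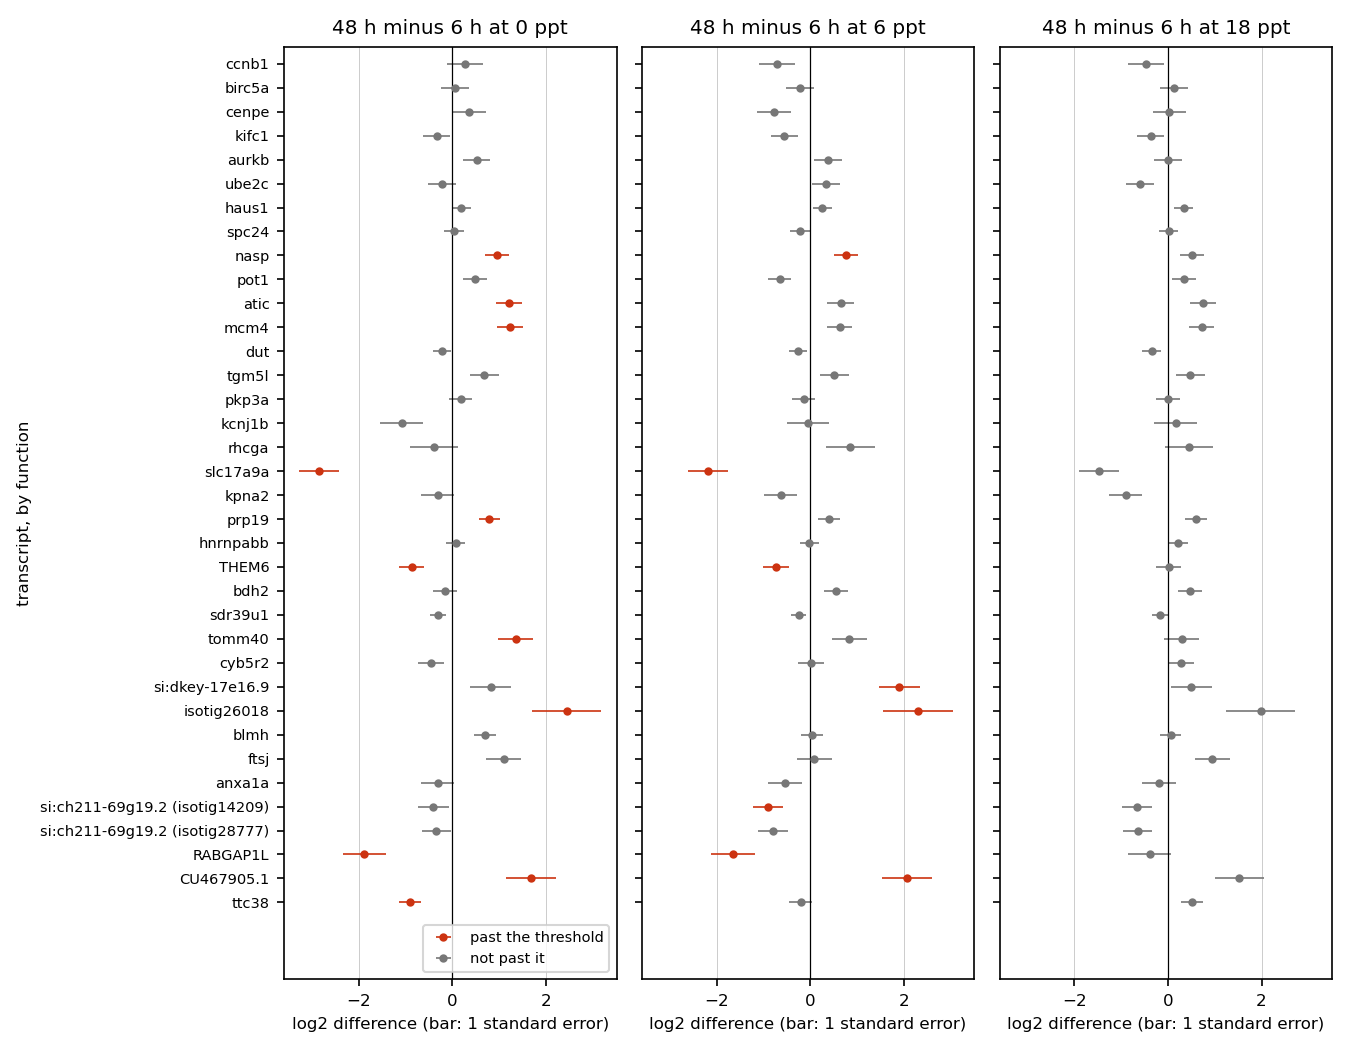
Log2 difference between 48 and 6 h (points) with 1 standard error (bars) for the 36 members in the model at 0, 6 and 18 ppt, ordered by function. Members past the threshold are colored, 11 at 0 ppt, 8 at 6 ppt and 0 at 18 ppt, and slc17a9a has the lowest point in each panel, at -2.85 for 0 ppt.

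The mitotic transcripts varied together from fish to fish outside the 2 groups that chose them. Over 60 fish of 14 groups, with each fish expressed as the deviation from its group mean, the 105 pairs of mitotic transcripts had a median Pearson correlation of 0.58 and a median Spearman correlation of 0.53, and all were above 0, between 0.13 and 0.85. Pairs of a mitotic and a DNA replication transcript had a median of 0.33, and pairs of a mitotic transcript and a member outside both lists one of 0.06. Outside the list, si:ch211-69g19.2 followed the mitotic mean most closely, with 0.86 and 0.85 for its duplicate listings, and kpna2 with 0.83. Within the list spc24 had the lowest value at 0.46. The rRNA methyltransferase ftsj stood at -0.33. These are descriptions of transcripts measured on the same arrays, which share RNA preparation and brightness. Without the dim array of fish 5 at 18 ppt and 48 h, the median of the mitotic pairs was 0.59.

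Markers of gill cell types are given beside the members as far as the salinity list names them. Of the 6 ionocyte markers, 4 were lower at 12 ppt than in the control at 48 h, namely the Na+/K+ ATPase subunits atp1a1a.1 and atp1a1a.4 by a difference of -0.94 each and atp1b1b by -0.71, and the cotransporter slc12a2 by -0.12. The other two, rhcga and kcnj1b, are members. The summed ionocyte level was between 14.24 and 14.92 at 12 ppt and between 14.82 and 15.29 in the control. This sum rests mostly on atp1a1a.4, whose own mean was 13.57 at 12 ppt and 14.51 in the control, and rhcga and kcnj1b add little to it. Of the 6 leukocyte markers 3 were higher and 3 lower, and the sum was between 11.55 and 12.59 against 10.95 and 12.68. Of the 3 epithelial junction markers 2 were lower and the member pkp3a was higher, with sums of up to 11.44 against up to 11.96. The 5 markers of proliferating cells are all members. The lowest group mean of a single marker was 2.47 on the log2 scale, of the leukocyte gene irg1l. A log2 mean above 0 does not show that a transcript was detected, so presence of a cell type cannot be read from it. The part of cell composition in the differences was not tested.

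The 4 fish at 12 ppt and 48 h lay on 3 slides and the 6 controls on 5, with 0 slides in common, so that no value of the difference that chose the members could be formed within a slide. On the slides that held fish of 12 ppt at 48 h, the mitotic mean of these fish, between 8.20 and 8.57, was above that of each of the other fish, between 6.38 and 7.83. None of those others was a control of 48 h, and the fish at 12 ppt had chosen the transcripts. The part of the slide in the difference was therefore not tested. When any 1 of the 10 fish was left out, between 47 and 58 of the 59 probes kept a difference of at least 0.7, and all 47 transcripts stayed above 0. The lowest count came without control A2, which was also the single fish of both groups scanned on the second day. Within photomultiplier settings, 40 and 34 of the 47 transcripts kept the minimum, and against the controls of label letter A, B or C alone 42, 35 and 32 did. The second setting held 1 fish at 12 ppt and letter C 1 control. In these splits 45 and 44 of the 47 transcripts were above 0, with lowest differences of -0.27 and -0.73, and in the others all 47 were. Of the mitotic transcripts the lowest difference over these splits was 0.37, against letter C. Leaving out fish and splitting them re-read the values that chose the members, so that differences above 0 follow in part from the rule. These splits were added after the data had been seen. Over the called differences in other groups, 131 values within scan days, photomultiplier settings and slides could be formed, and 0 had the opposite sign. These differences had been called over the same fish, so that the same sign was likely beforehand. Some of the values rest on 1 fish of each group, and an effect of batch was not tested by them.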

How the data were processed

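Gill RNA of 70 fish was measured on single-color oligonucleotide arrays. The authors deposited, for each array, the processed signal of their Feature Extraction image analysis, an intensity after background subtraction, with no scaling across arrays. A second deposited table held log2 values of the same fish, quantile normalized and centered on each probe's median, which the values show (correlation of at least 0.9994 with centered log2 signals computed here). That table set the 0.7 minimum and served as an alternative. Fold values are 2 to the power of a log2 difference. Direction, scale and centering of the table were thus settled. Gene names are those of the study's salinity list, and 31 of 47 member symbols were found in the RefSeq gene table of the species.

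Outlier spots were left out (2036, 0.202%). The filter kept 14425 probes whose signal reached 100 on 50% of the arrays, followed by quantile normalization and a log2 transformation. The probes that the salinity list assigns to a transcript and that reached the minimum were averaged. limma (version 3.58.1, R 4.3.3) estimated 16 group means from all 70 arrays (54 residual degrees of freedom), with Benjamini-Hochberg adjustment over about 14416 features and a threshold of 0.05. The code was tested on simulated data. Array medians from 12.9 to 131 and the number of fish limit the precision.

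Groups came from the salinity and time in the labels. The members, function lists and marker lists were chosen with earlier results of these data known. Named were the 10 members with the largest difference, the 3 largest of each function with at least 3 members, the 3 smallest adjusted p per comparison with a call, and the 2 transcripts on either side of the minimum. Further members were named after their values had been seen. Alternatives comprised other backgrounds, scalings and filters, the authors' values, blocks for slide, scan day, photomultiplier setting and replicate number, brightness, single probes, other minimums and leaving out each fish. The background alternative used the median signal, since no mean signal column was present. Sequences are the deposited probe sequences, and genome positions were not used here.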

Additional observations from a re-analysis of the deposited data

Results flagged for a closer look

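By function and by transcript, 182 sets of 4 to 6 fish were examined for a fish that stood apart, and 9 cases were found. The sets share fish, and this share of cases is near that given by chance, about 5%, or 1 in 20. The cases are listed as descriptions only. Of the mean levels by function, mitosis was low in fish 4 of 12 ppt at 6 h (6.00, others 6.76 to 6.85), DNA replication low in fish 2 of 6 ppt at 48 h (8.20, others 8.59 to 8.65), and amino acid and lipid metabolism high in fish A3 of 2 ppt at 6 h (8.52, others 7.73 to 8.01). The ion and epithelium level was low in fish 1 of 18 ppt at 24 h (9.33, others 9.59 to 9.60), that of mitochondria low in fish 3 of 0 ppt at 6 h (6.82, others 7.28 to 7.34), and that of the remaining members low in fish 4 of 0 ppt at 6 h (8.07, others 8.29 to 8.32). Of single transcripts in the groups that chose the members, ska1 was low in fish 2 of 12 ppt at 48 h (7.19, others 7.42 to 7.46), CU467905.1 high in the same fish (11.02, others 10.02 to 10.11), and mcm4 low in control A2 at 48 h (8.10, others 9.02 to 9.40).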

How the results depend on the processing

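Counts of members past the threshold depended on the processing, while of 2378 values of called single members none turned direction and 2191 kept the call. For each call, 12 of these values came from other settings and 70 from leaving out 1 fish. Leaving out a fish of a group outside the comparison cannot change the difference, so that most of these values could not turn. For 12 against 2 ppt at 6 h the count of 2 became 4 with 75th percentile scaling, with a filter on signals well above background and with the authors' values, 5 with slide as a fixed block, and 1 with photomultiplier setting as a block or brightness as a covariate. For 6 to 24 h at 12 ppt the count of 7 became 2 without a filter, 3 with the background filter, and 0 with slide as a fixed block or brightness. For 18 against 0 ppt at 48 h the count of 1 became 0 with 75th percentile scaling, either filter alternative or the authors' values, 2 with the normexp background, scan day or brightness, and 3 with photomultiplier setting or slide as a random block. For 6 to 48 h at 0 ppt the count of 11 became 5 with 75th percentile scaling or no filter, 6 with the background filter or the authors' values, and 7 with slide as a fixed block. At 6 ppt the count of 8 became 5 with slide as a fixed block and 2 with brightness. At 18 ppt the count of 0 became 1 with 75th percentile scaling, either filter alternative, the authors' values or brightness. Leaving out 1 fish moved the counts between 0 and 5, 0 and 9, 1 and 8, 5 and 13, 4 and 9, and 0 and 6 in the same order, and between 0 and 1 for 18 against 6 ppt at 48 h. The other 6 counts of 0 stayed at 0 throughout. In every setting and with each fish left out, mcm4, atic and slc17a9a kept the call for 6 to 48 h at 0 ppt, and si:dkey-17e16.9 and slc17a9a at 6 ppt. The lost calls' cause was not tested.

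Deviations of fish with the same replicate number in different groups had a median correlation of 0.014 over 480 pairs, against -0.012 over 1811 others. For fish of different groups on the same slide it was 0.092 over 96 pairs, and the main model held no term for slide. The labels do not say whether the numbers pair fish, and a median cannot decide it. The numbers were read here as names of fish. With a replicate block the count at 6 ppt was 4 and that at 18 ppt 1, and the others stayed within 1.5 times.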
